A study of Mus musculus with 16 samples.

Results

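The insulin-like growth factor (IGF) genes described here are 10 of the 55492 genes in the deposited expression table. They were taken by name and are the ligands *Igf1* and *Igf2*, the receptors *Igf1r* and *Igf2r*, and the binding proteins *Igfbp2*, *Igfbp3*, *Igfbp4*, *Igfbp5*, *Igfbp6* and *Igfbp7*. Total RNA depleted of ribosomal RNA was sequenced from the left ventricles of 16 male C57BL/6 mice aged 8 to 12 weeks. The mice were either PKM2fl/fl, in which the exon particular to the M2 isoform of pyruvate kinase is flanked by loxP sites and still present, or PKM2-/-, in which that exon had been removed in all tissues by CMV-Cre and the Cre transgene then bred out. Each genotype was sampled at baseline without surgery (n = 2), 3 days after sham surgery (n = 3) and 3 days after myocardial infarction (MI, n = 3) made by tying the left anterior descending coronary artery. Each library came from 1 mouse.

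IGF1 and IGF2 are secreted peptides that signal growth and survival through IGF1R, a tyrosine kinase receptor that acts through insulin receptor substrates, PI3K and AKT. IGF2R, also the receptor for lysosomal enzymes tagged with mannose phosphate, takes up IGF2 and delivers it to lysosomes. IGF binding proteins hold the peptides in plasma and tissue, and proteases release the peptides by cutting the binding proteins. In the heart, IGF1 is known as a survival signal for cardiomyocytes, and macrophages and fibroblasts are known sources of it.

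Values are normalized counts, that is, reads per gene divided by a size factor of each library. The libraries held 20623769 to 71855101 reads. The share of reads on 4 loci with ribosomal sequence was 17.2% to 22.1% in PKM2fl/fl and 39.6% to 43.8% in PKM2-/- hearts at baseline, and 15.8% to 27.8% and 28.5% to 46.0% after sham surgery, without overlap at either stage. After MI it was 19.8% to 44.5% and 15.98% to 34.2%, with overlap. Its part in the genotype values, and in the values given below for libraries scaled to equal totals, was not tested. *Pkm* as a whole gene had 7779 to 12076 normalized counts in PKM2fl/fl hearts and 10120.2 to 16113 in PKM2-/- hearts. Reads per gene do not separate its isoforms, so the deletion was not checked here. All 7 cardiomyocyte markers looked at were detected in every group.

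The plot of normalized counts by library shows all 10 genes. *Igf1*, *Igf2*, *Igfbp3* and *Igfbp7* were higher after MI than after sham surgery in both genotypes, and *Igfbp6* was lower after MI in PKM2-/- hearts. No member differed between the genotypes past the test at any stage.

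**Figure D1:**
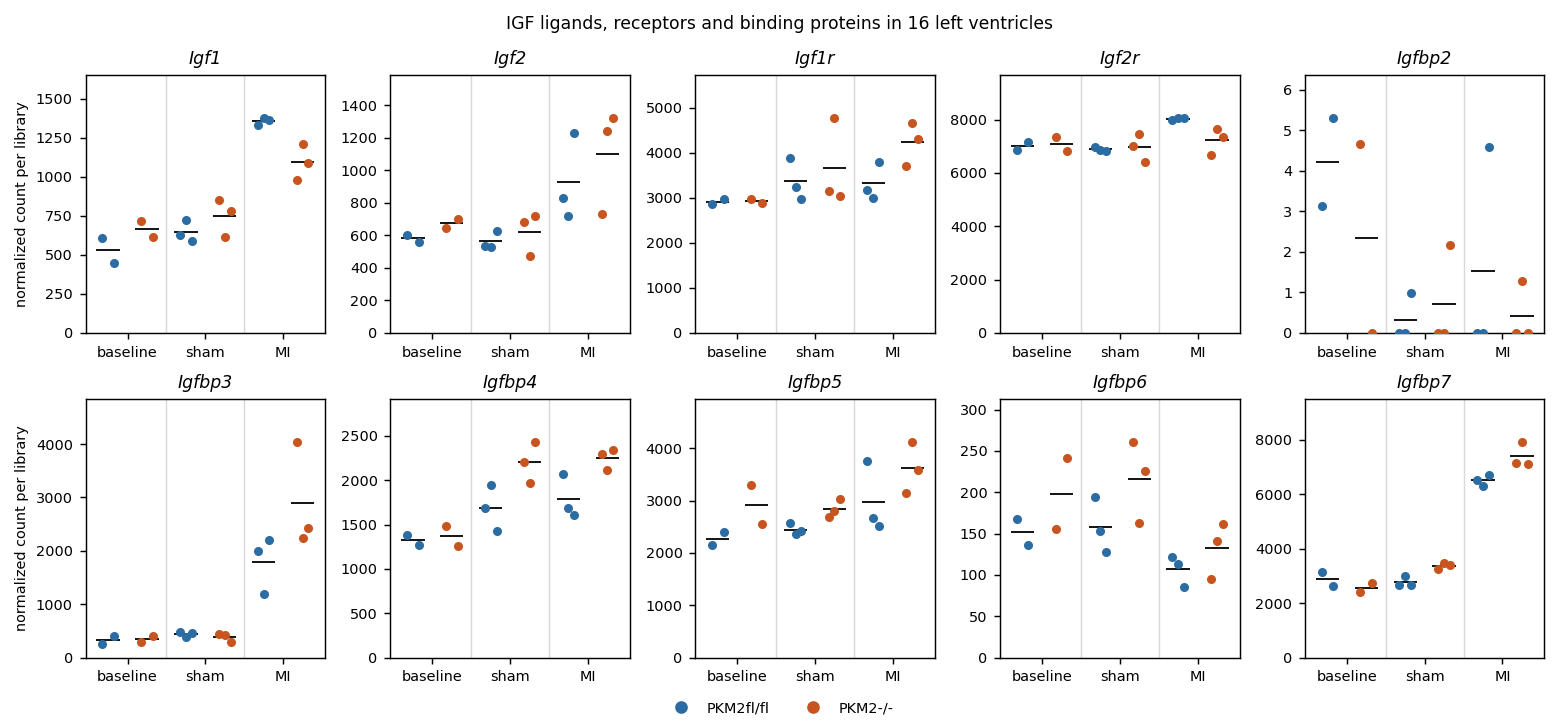
Normalized count per library (vertical axis, starting at 0) of each of the 10 genes at baseline, after sham surgery and after MI. Blue points are PKM2fl/fl and orange points PKM2-/- hearts, and black lines are group means of 2 (baseline) or 3 hearts. For *Igf1*, *Igf2*, *Igfbp3* and *Igfbp7*, every MI heart lies above every sham heart of its genotype.

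The bases upstream of 3 members called after MI are printed first, because their windows, or most of them, lie outside annotated transcripts. They come from RefSeq on GRCm38.p6, which has the coordinates of mm10, the build of the reads. All 10 members were matched in RefSeq by symbol. The windows hold up to 250 bases before the annotated start and stop where the first annotated transcript begins. For *Igf2*, 1 of its annotated starts lies at the window chr7:142657497-142657746 on the reverse strand. The *Igfbp7* window is chr5:77408085-77408295 on the reverse strand, and the *Igfbp6* window is chr15:102143936-102144185 on the forward strand. The windows of *Igf1* and *Igfbp3* lie wholly inside annotated transcripts and are not shown. Capitals mark matches on either strand to 1 of 6 motifs.

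Igf2: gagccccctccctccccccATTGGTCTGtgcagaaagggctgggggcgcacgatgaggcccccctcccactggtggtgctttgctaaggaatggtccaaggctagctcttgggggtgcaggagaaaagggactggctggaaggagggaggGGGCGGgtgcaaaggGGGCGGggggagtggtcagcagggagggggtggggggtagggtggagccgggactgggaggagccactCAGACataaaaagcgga

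Igfbp7: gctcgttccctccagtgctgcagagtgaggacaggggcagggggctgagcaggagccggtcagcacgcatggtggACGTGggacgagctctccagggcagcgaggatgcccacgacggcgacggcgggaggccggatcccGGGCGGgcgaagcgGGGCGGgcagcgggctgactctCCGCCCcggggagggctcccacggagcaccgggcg

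Igfbp6: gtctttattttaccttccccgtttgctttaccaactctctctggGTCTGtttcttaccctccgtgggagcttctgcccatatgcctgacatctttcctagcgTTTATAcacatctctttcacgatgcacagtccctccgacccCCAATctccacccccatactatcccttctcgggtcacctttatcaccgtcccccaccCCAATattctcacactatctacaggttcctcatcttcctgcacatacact

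The *Igfbp7* window held 3 GC boxes (GGGCGG, in 32.7% of 32851 windows) and 1 core of the hypoxia-inducible factor site (ACGTG, in 16.6%). Those background windows were 250 bases long and not cut at transcripts, while the *Igfbp7* window was cut to 211 bases. The *Igf2* window held 2 GC boxes, 2 SMAD boxes (CAGAC, in 42.2%) and 1 CCAAT box (CCAAT, in 33.8%), which shares a base with the first SMAD box. The *Igfbp6* window held 2 CCAAT boxes, 1 SMAD box and 1 TATA box (TATAAA, in 12.4%). The sixth motif searched, the AP-1 site (TGANTCA, in 6.75%), was in none of these 3 windows. These matches are short strings of letters and say nothing of binding.

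The first comparison asked how MI moved the IGF genes in hearts with intact PKM2. In PKM2fl/fl hearts, both ligands and 2 binding proteins rose. *Igfbp3* rose 3.94-fold, *Igfbp7* 2.35-fold, *Igf1* 2.11-fold and *Igf2* 1.60-fold, while the receptors did not pass the test. Of the 10 members, 9 passed the filter on low values and 4 were called at an adjusted p under 0.05, all of them higher. Of the 20576 genes tested, 50.1% were called and 24.8% were called higher. With a change of at least 2-fold as well, 3 members were called, against 23.5% of all genes. The median log2 fold change of the 9 members was 0.26, beside -0.0025 for all genes tested.

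The same comparison in PKM2-/- hearts gave 5 called members of 9, against 56.8% of all genes. The 4 higher members stood beside 28.7% of genes called higher, and the 1 lower member beside 28.1% called lower. *Igfbp3* rose 7.44-fold, *Igfbp7* 2.18-fold, *Igf2* 1.73-fold and *Igf1* 1.47-fold, and *Igfbp6* fell to 0.611 of its sham level. With a 2-fold change as well, 2 members were called, against 28.8% of all genes. The median log2 fold change of the 9 members was 0.34, beside 0.010 for all genes. In both genotypes the share of members called in either direction lay near or below that of all genes. The share called higher lay above that of all genes in both. With a 2-fold change as well, the share lay above in PKM2fl/fl and below in PKM2-/- hearts. With 9 members, nothing about the family is read from these counts. Whole ventricle was sequenced, so fewer cells of a type and less RNA per cell cannot be told apart.

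**Figure D2:**
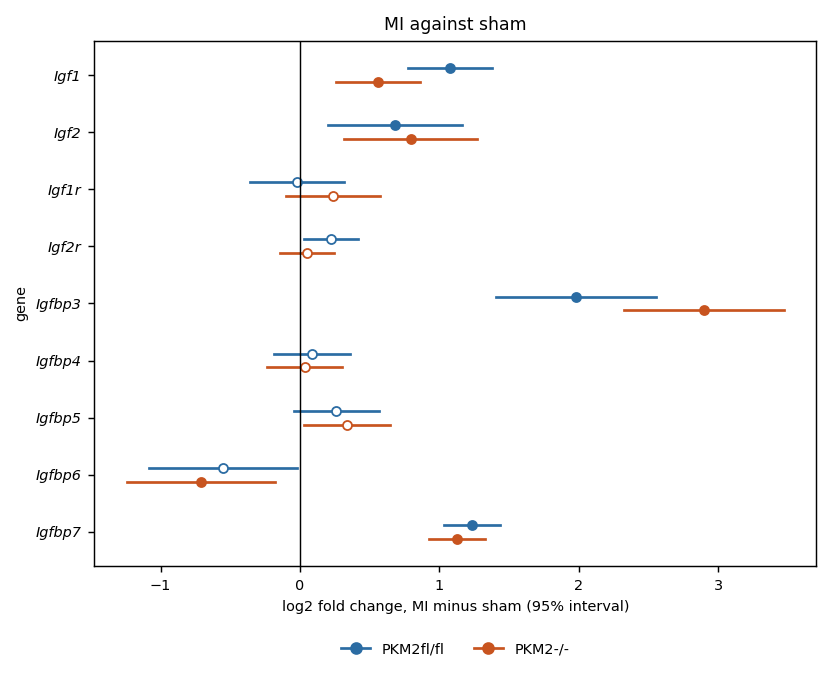
Log2 fold change of 9 genes, MI minus sham (horizontal axis, fitted by limma on log2 of the normalized count plus 1), with 95% intervals, in PKM2fl/fl (blue) and PKM2-/- hearts (orange). Filled points are called at an adjusted p under 0.05 and open points are not. *Igfbp3* lies farthest right in both genotypes, at 1.98 and 2.90.

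*Igf1*, the growth hormone responsive ligand, lies on the forward strand at chr10:87858265-87937047. Its normalized counts were 630.4, 722 and 587 in PKM2fl/fl sham hearts, and 1332, 1380.2 and 1362 after MI. The MI hearts lay close together and well clear of the sham hearts. The log2 fold change was 1.08 (95% interval 0.78 to 1.38, limma adjusted p = 1.95e-05). Among PKM2-/- hearts, *Igf1* measured 849, 613 and 780.0 after sham surgery and 983, 1212 and 1088 after MI. Here too the groups did not overlap, which held for 62.3% of all genes. That log2 fold change was 0.56 (95% interval 0.26 to 0.86, limma adjusted p = 0.00330). *Igf1* kept both calls in all 16 alternatives tried in each genotype.

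*Igf2*, the other ligand, is expressed from the paternal allele in most tissues and lies at chr7:142650768-142666816 on the reverse strand. It had 536, 529 and 624 normalized counts in PKM2fl/fl sham hearts and 827, 719 and 1227 after MI. Every MI heart exceeded every sham heart, a separation seen in 59% of all genes, but the third MI heart stood well above the other two. This was a log2 fold change of 0.68 (95% interval 0.20 to 1.16, limma adjusted p = 0.0199). The call was lost without that MI heart (limma adjusted p = 0.105), without sham heart 1 (0.0580), without sham heart 2 (0.0591) and with the libraries scaled to equal totals (0.198).

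In PKM2-/- hearts, *Igf2* measured 682, 470.1 and 716 after sham surgery and 729, 1242 and 1323 after MI. The lowest MI heart was only just above the highest sham heart. Their log2 fold change was 0.79 (95% interval 0.31 to 1.27, limma adjusted p = 0.00722), and the call held in all 16 alternatives. A second annotated gene, *Gm49394*, shares 3599 exon bases with *Igf2* on the same strand. Over the 16 libraries it held 13029 reads and *Igf2* 13013, and the difference within a library was 4 reads or fewer. Reads of these 2 genes therefore cannot be told apart, and every *Igf2* value here is that of the pair.

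The receptors moved little in the normalized counts. *Igf1r*, the signalling receptor, at chr7:67952257-68233668 on the forward strand, had 3885, 3251 and 2974 normalized counts in PKM2fl/fl sham hearts and 3178, 2992 and 3796 after MI. The ranges overlapped almost fully, with a log2 fold change of -0.02 (95% interval -0.36 to 0.32, limma adjusted p = 0.930). The PKM2-/- hearts measured 3157, 4786 and 3049.7 after sham surgery and 3716, 4673 and 4319 after MI. Sham heart 2 was the highest of all 16 hearts for this gene. Its log2 fold change was 0.23 (95% interval -0.10 to 0.57, limma adjusted p = 0.222). Without sham heart 2 it became 0.44, with a limma adjusted p of 0.0125. Over 16 alternatives this PKM2-/- value ran from 0.12 to 0.75.

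*Igf2r*, the clearance receptor, lies at chr17:12682406-12769706 on the reverse strand. PKM2fl/fl sham hearts had 6966, 6866 and 6840.1 normalized counts and MI hearts 7970.2, 8075 and 8047. These groups were narrow and did not overlap, yet the log2 fold change of 0.22 (95% interval 0.03 to 0.41) missed the threshold (limma adjusted p = 0.0539). DESeq2 on the recovered reads called it (DESeq2 adjusted p = 0.0149). *Igf2r* in PKM2-/- hearts measured 7025, 7462 and 6415 after sham surgery and 6656, 7663 and 7355 after MI. Those ranges overlapped, with a log2 fold change of 0.05 (95% interval -0.14 to 0.25, limma adjusted p = 0.644). Over 16 alternatives that log2 fold change ran from -0.0057 to 0.57. The long antisense RNA *Airn*, which runs through an *Igf2r* intron, held 103913 reads beside 124949 for *Igf2r*. They share 0 annotated exon bases, but the library kit does not mark strand.

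*Igfbp3*, the main carrier of IGFs in plasma, had the largest change of the family. It lies at chr11:7206086-7215498 on the reverse strand. PKM2fl/fl hearts had 482, 379.8 and 467 normalized counts after sham surgery and 1988, 1198 and 2209.6 after MI. Even the lowest MI heart was far above the highest sham heart. The log2 fold change was 1.98 (95% interval 1.41 to 2.55, limma adjusted p = 2.71e-05). PKM2-/- hearts had 436, 422 and 288 after sham surgery and 4031, 2239 and 2437 after MI. MI heart 1 was the highest of the 16. That log2 fold change was 2.90 (95% interval 2.32 to 3.47, limma adjusted p = 6.73e-07). Both calls held in all 16 alternatives.

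*Igfbp7*, which binds IGFs weakly and is a secreted protein of vessels and stroma, lies at chr5:77349240-77408045 on the reverse strand, next to the window shown above. Its normalized counts were 2674, 2984 and 2663 in PKM2fl/fl sham hearts and 6526, 6312 and 6714 after MI. All MI hearts were tightly grouped above the sham hearts. Here the log2 fold change was 1.23 (95% interval 1.04 to 1.43, limma adjusted p = 1.53e-07). Among PKM2-/- hearts the counts were 3262, 3467 and 3416 after sham surgery and 7155, 7904 and 7127 after MI, again well apart. There the log2 fold change was 1.13 (95% interval 0.93 to 1.33, limma adjusted p = 2.57e-07). *Igfbp7* shares 747 exon bases with *Polr2b* on the opposite strand, which held 27270 reads beside 75959 for *Igfbp7*.

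*Igfbp6*, a binding protein with a preference for IGF2, was the one member called lower after MI. It lies at chr15:102144186-102149512 on the forward strand. PKM2-/- hearts had 260.4, 163 and 225 normalized counts after sham surgery and 94.8, 142 and 162 after MI. The highest MI heart lay just under the lowest sham heart. The log2 fold change was -0.71 (95% interval -1.24 to -0.18, limma adjusted p = 0.0236). The call was lost without sham heart 1 (limma adjusted p = 0.101), without sham heart 3 (0.0653), without MI heart 1 (0.121) and with equal library totals (0.655). PKM2fl/fl hearts had 194, 153 and 128 after sham surgery and 122, 114 and 86.0 after MI. Those groups did not overlap either, as in 59% of all genes. A log2 fold change of -0.55 there was not called (limma adjusted p = 0.0770). Over 16 alternatives, with limma, edgeR or DESeq2, it ran from -0.73 to -0.40, with adjusted p from 0.0213 to 0.262.

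*Igfbp4* and *Igfbp5*, both common in connective tissue, did not pass the test in either genotype. *Igfbp4*, at chr11:99040005-99052655, had 1684, 1948 and 1428 normalized counts in PKM2fl/fl sham hearts and 2067, 1681 and 1608 after MI. The PKM2-/- hearts had 2209, 1972 and 2426 after sham surgery and 2292, 2114 and 2336 after MI. The groups overlapped in both genotypes, with log2 fold changes of 0.08 (limma adjusted p = 0.609) and 0.03 (0.845), and the first was -0.09 with equal library totals.

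*Igfbp5*, at chr1:72858065-72874865, had 2563, 2362 and 2413 normalized counts in PKM2fl/fl sham hearts and 3747, 2664 and 2521 after MI. One MI heart stood above all the others, and the log2 fold change was 0.26 (limma adjusted p = 0.146). PKM2-/- hearts had 2694, 2809 and 3030.3 after sham surgery and 3150.2, 4113 and 3582 after MI. Those groups did not overlap, and the log2 fold change of 0.34 had a limma adjusted p of 0.0567. The call was made without MI heart 1 (limma adjusted p = 0.0304).

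*Igfbp2*, at chr1:72824480-72852474, was close to absent. It held 27 reads over all libraries and 0 in 9 of the 16, so it was not tested. The most, 8 reads, were in a PKM2fl/fl baseline heart.

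Per kilobase of exon, which allows a rough comparison of levels between genes, *Igf2r* was the highest member before infarction. Its mean was 735 to 756 normalized counts per kb in the baseline and sham groups of both genotypes. The length joins all annotated exons of a gene, for example 10.2 kb for *Igf1* and 19.8 kb for *Igf1r*. A gene with exons unused in the heart therefore reads low. After MI, *Igfbp7* was highest, at 1196 ± 36.9 per kb in PKM2fl/fl and 1357 ± 81.0 in PKM2-/- hearts (SD, n = 3), and the next gene did not overlap it. *Igfbp3* moved from 124 ± 15.4 per kb after sham surgery to 504 ± 149 after MI in PKM2fl/fl hearts. It moved in PKM2-/- hearts from 107 ± 22.9 to 814 ± 276 per kb and overlapped *Igf2r*, at 771 ± 55.0. *Igf1* stayed low on this scale, at 51.6 to 133 per kb over the 6 groups.

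The plot of summed levels shows what the 6 binding protein genes held together. Their sum was 1437 to 1599 normalized counts per kb in PKM2fl/fl sham hearts and 2401 to 2935 after MI. The sum in PKM2-/- hearts was 1787 to 1925 and 3233 to 3555. The MI hearts lay above the sham hearts in both genotypes. *Igfbp3* made up 6.66% to 9.11% of that sum after sham surgery and 14.0% to 23.0% after MI in PKM2fl/fl hearts. Its share was 4.20% to 6.62% and then 18.8% to 31.8% in PKM2-/- hearts. *Igfbp6* went from 6.45% to 10.2% in the 6 sham hearts to 1.93% to 3.62% in the 6 MI hearts. The summed binding proteins per summed ligands lay between 8.13 and 16.6 in all hearts, and the MI and sham ranges overlapped in both genotypes.

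**Figure D3:**
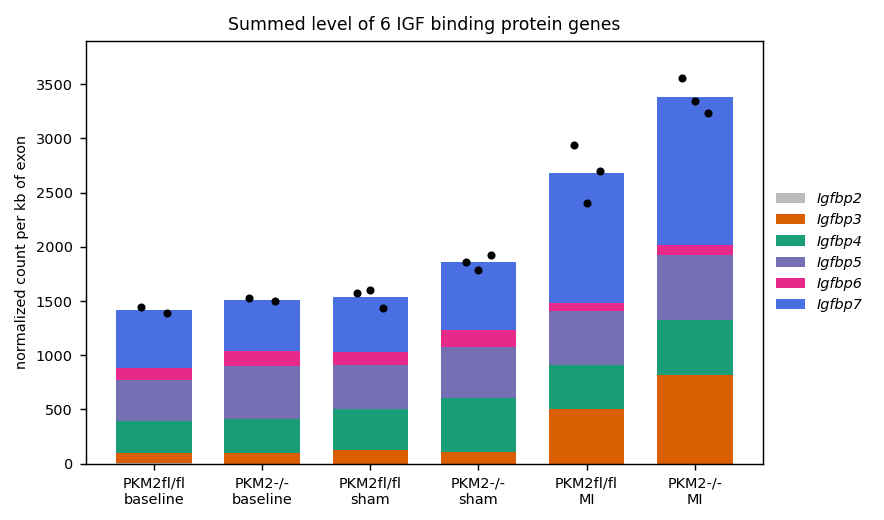
Summed level of the 6 binding protein genes in normalized counts per kb of exon (vertical axis, starting at 0) in each group. Coloured segments are group means of each gene and black points are the sums of single hearts. From sham to MI the orange *Igfbp3* and the blue *Igfbp7* segments widen most. The mean of *Igfbp5*, which did not pass the test, was 407 and 496 per kb in PKM2fl/fl and 474 and 602 in PKM2-/- hearts.

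Marker RNA of several cell types moved with the infarct, and cell numbers were not measured. Summed over 7 macrophage markers, PKM2fl/fl hearts held 6706 to 11682 normalized counts after sham surgery and 21699 to 32696 after MI, and PKM2-/- hearts 8990.3 to 11200.4 and 30601 to 33889.6. All 7 macrophage markers rose in both genotypes. The 7 fibroblast markers summed to 24281 to 45617 in PKM2fl/fl sham hearts and 162506 to 176380 after MI, and 5 of them rose while *Dcn* fell. That sum in PKM2-/- hearts was 27837 to 45316 and 141915 to 196415, with 5 higher and *Dcn* lower. The 7 cardiomyocyte markers summed to 956417 to 1101610 and 189228 to 442300 in PKM2fl/fl hearts, with 6 lower. Those of PKM2-/- hearts summed to 902315 to 1096770 and 194766 to 268166, with all 7 lower. Of 6 monocyte and neutrophil markers 4 rose in each genotype, and of 5 epicardial markers 0 were called in PKM2fl/fl and 4 rose in PKM2-/- hearts. No marker of these 5 lists was at 0 throughout a group. Their part in the IGF results was not tested.

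The second question was whether loss of PKM2 changed the IGF genes. At baseline no member was called, against 0.00972% of the genes tested, and 0.00972% were called after sham surgery, again with no member. After MI no member was called, against 0.967% of the genes. At an unadjusted p under 0.05 there were 0 members at baseline, 2 after sham surgery and 4 after MI, against 3.64%, 9.95% and 17% of genes. The medians of the 9 members were 0.11, 0.20 and 0.29 on the log2 scale, beside -0.0034, -0.0056 and -0.0035 for all genes.

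**Figure D4:**
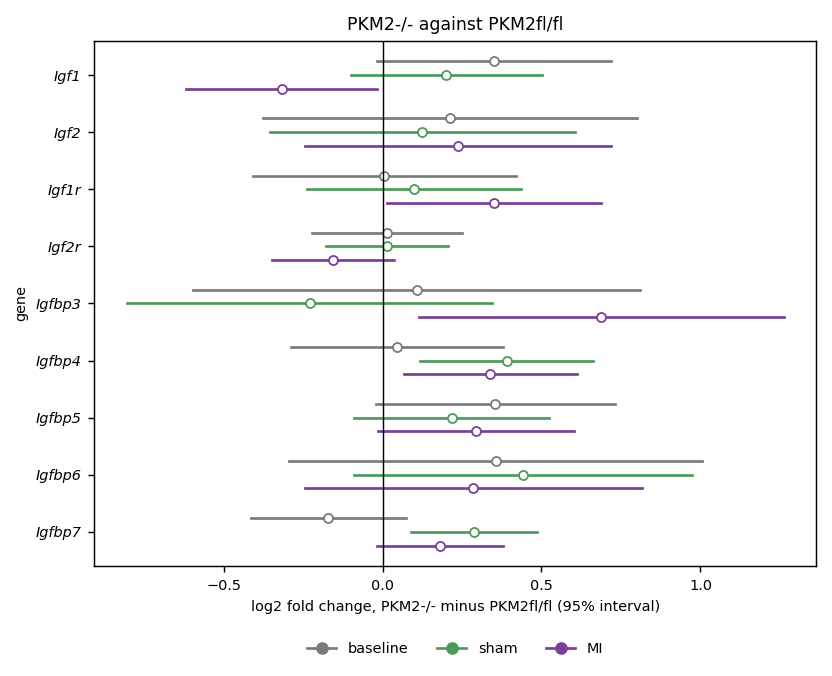
Log2 fold change of 9 genes, PKM2-/- minus PKM2fl/fl (horizontal axis, fitted by limma), with 95% intervals, at baseline (grey), after sham surgery (green) and after MI (purple). All points are open, since none was called at an adjusted p under 0.05. The widest interval belongs to *Igfbp3* at baseline, from -0.60 to 0.81.

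The means of *Igf1* differed between genotypes in opposite directions at 2 stages, without a call at either. Baseline hearts had 611 and 446 normalized counts in PKM2fl/fl and 718 and 618 in PKM2-/- mice. Both knockout hearts were above both controls, and groups were separate in 34.9% of genes, in either direction. The baseline log2 difference was 0.35 (95% interval -0.02 to 0.72). Equal library totals moved the median of all genes at baseline to -0.59, and *Igf1* itself is not given under that scaling. After MI all 3 knockout hearts, at 983 to 1212, lay below all 3 controls, at 1332 to 1380.2. The log2 difference after MI was -0.32 (95% interval -0.62 to -0.02, limma adjusted p = 0.268), and 0.05 with equal library totals. Groups were separate in 18.9% of genes at that stage. The interaction of genotype with MI, against sham, was -0.52 on the log2 scale (95% interval -0.94 to -0.09, limma adjusted p = 0.540), and 0.17 with equal library totals. The genotype difference after MI set against that at baseline gave no called member, against 0.0243% of genes.

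*Igfbp3* after MI was 1.61-fold higher in PKM2-/- hearts, which held 4031, 2239 and 2437 normalized counts beside 1988, 1198 and 2209.6. The groups did not overlap, though only narrowly. The log2 difference was 0.69 (95% interval 0.11 to 1.26, limma adjusted p = 0.210). Adjusted p over the alternatives ran from 1.44e-05, with edgeR and no filter on low counts, to 0.599. The interaction was 0.92 (95% interval 0.10 to 1.73, limma adjusted p = 0.566), and edgeR with no filter called it (edgeR adjusted p = 0.000213).

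*Igfbp4* was above the controls in all 3 PKM2-/- hearts both after sham surgery and after MI. The log2 difference was 0.39 after sham surgery (95% interval 0.12 to 0.66, limma adjusted p = 0.276) and 0.34 after MI (95% interval 0.07 to 0.61, limma adjusted p = 0.193). Over 16 alternatives the difference ran from 0.07 to 0.50 after sham surgery and from 0.27 to 0.71 after MI. *Igfbp7* was 1.22-fold higher after sham surgery (log2 difference 0.29, 95% interval 0.09 to 0.49, limma adjusted p = 0.270), but -0.04 with equal library totals. After sham surgery 3 members had groups that did not overlap, against 16.5% of genes, and after MI there were 5, against 18.9%. *Igf1r* after MI differed by 0.35 (95% interval 0.01 to 0.69, limma adjusted p = 0.275) with overlapping groups. *Igf2r* after MI was lower in all 3 PKM2-/- hearts, with a log2 difference of -0.16 (95% interval -0.35 to 0.04, limma adjusted p = 0.405). After MI the monocyte and neutrophil markers summed to 3328 to 5182 normalized counts in PKM2fl/fl and 5729.9 to 6958 in PKM2-/- hearts, without overlap, though none of the 6 was called. The 7 cardiomyocyte markers had a median log2 difference of -0.55 at that stage, and none was called. *Myh6*, for example, had 137875, 134794 and 46178 normalized counts in PKM2fl/fl MI hearts and 66975, 50252 and 49315 in PKM2-/- MI hearts. PKM2fl/fl MI heart 3 was the lowest of its group for each of the 7. The part of these 2 marker lists in the genotype values was not tested.

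The genotype by MI interaction gave 0 called genes of 20576 with limma, among them none of the 9 members, and 0% is therefore the background. At an unadjusted p under 0.05 limma had 1703 genes (8.28%) and 2 of the members, *Igf1* and *Igfbp3*. Other tools called 0 (edgeR with its filter), 538 (edgeR with no filter) and 52 genes (DESeq2), and without PKM2fl/fl MI heart 3 limma called 484. Calls therefore depended on the tool, and intervals of the limma difference are given for members as well. They hold the spread between hearts but not the choice of scaling. Equal library totals moved the median interaction of all genes to 0.675, so they are no bound across scalings. For *Igfbp7* the interval was -0.39 to 0.17, for *Igf2* -0.57 to 0.79 and for *Igfbp6* -0.91 to 0.59.

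Sham surgery against baseline asked what the operation itself moved. In PKM2-/- hearts *Igfbp4* and *Igfbp7* rose, the only 2 members called, against 5.14% of genes called and 3.48% called higher. *Igfbp4* had 1488 and 1253 normalized counts at baseline and 2209, 1972 and 2426 after sham surgery, with no overlap, as in 34.5% of genes. Its log2 fold change was 0.68 (95% interval 0.38 to 0.99, limma adjusted p = 0.0125), and the call was lost without baseline heart 2 (limma adjusted p = 0.144) and with equal library totals (0.161). *Igfbp7* went from 2406 and 2732 to 3262, 3467 and 3416. That log2 fold change of 0.40 (95% interval 0.18 to 0.62, limma adjusted p = 0.0382) was lost without any 1 of the 5 hearts, with adjusted p from 0.0718 to 0.307.

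In PKM2fl/fl hearts no member was called between sham and baseline, against 0.19% of genes. *Igfbp4* came nearest, with 1382 and 1265 normalized counts at baseline and 1684, 1948 and 1428 after sham surgery. The groups did not overlap, as in 32.5% of genes, and the log2 fold change was 0.34 (95% interval 0.04 to 0.64, limma adjusted p = 0.487). Whether the genotypes differed in this response was not tested. Markers of monocytes and neutrophils summed to 187 to 232 normalized counts at baseline and 1079 to 1281 after sham surgery in PKM2-/- hearts, and to 170.3 to 255 and 343 to 1681 in PKM2fl/fl hearts. Of those 6 markers, 4 rose in PKM2-/- hearts and none was called in PKM2fl/fl hearts. Other marker lists moved too. In PKM2-/- hearts 3 of 7 fibroblast markers (*Col1a1*, *Col1a2* and *Col3a1*) and 3 of 7 macrophage markers (*Cd68*, *Mrc1* and *C1qa*) rose from baseline to sham, and 2 of 5 mural cell markers (*Pdgfrb* and *Kcnj8*) fell. There 1 of 6 endothelial markers and the 1 adipocyte marker tested rose as well. None of these markers was called in PKM2fl/fl hearts. From baseline to sham the fibroblast sum was 17429 to 19349.6 and then 27837 to 45316 in PKM2-/- hearts, and 16359.9 to 20768 and then 24281 to 45617 in PKM2fl/fl hearts. The macrophage sum was 4693 to 6584 at baseline in PKM2-/- hearts and 4751 to 5942 in PKM2fl/fl hearts, below the sham values given above in both genotypes. The mural sum was 16282 to 17418 and then 13078 to 15919 in PKM2-/- hearts, and 14673 to 16258 and then 12310.5 to 14160.5 in PKM2fl/fl hearts. Atrial markers summed to 120.1 to 138 at baseline and 317 to 1277 after sham surgery in PKM2fl/fl hearts. In PKM2-/- hearts their sum was 211 to 411 and then 353 to 1487, and none of the 3 tested was called in either genotype. Of all these lists, only the adipocyte marker *Lep* and the atrial marker *Bmp10* were at 0 throughout a group. The part of these markers in the *Igfbp4* and *Igfbp7* values was not tested.

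Around the family, 64 genes of the IGF axis were listed, of which 54 were tested. After MI 13 rose and 21 fell in PKM2fl/fl hearts, and 13 rose and 19 fell in PKM2-/- hearts, against 50.1% and 56.8% of all genes called. Calls over all genes were 5097 higher and 5202 lower in PKM2fl/fl hearts, and 5899 higher and 5780.0 lower in PKM2-/- hearts. With equal library totals the axis calls became 9 higher and 12 lower in PKM2fl/fl hearts, and 15 higher and 3 lower in PKM2-/- hearts. Over all genes that scaling gave 2368 higher and 3633 lower, and 7217 higher and 1891 lower. Under the main scaling, the median log2 fold change of the 54 axis genes was -0.06 in PKM2fl/fl hearts and -0.15 in PKM2-/- hearts. Among the proteases and inhibitors that act on binding proteins, 4 of 7 rose and 2 fell in PKM2fl/fl hearts, and 3 rose and 2 fell in PKM2-/- hearts. *Adam12*, a metalloprotease that cuts IGFBP3 and IGFBP5, went from a mean of 235 to 2825 normalized counts in PKM2fl/fl hearts (log2 fold change 3.59, limma adjusted p = 1.16e-07). *Pappa*, the protease that cuts IGFBP4, went from 151 to 778 (log2 fold change 2.36, limma adjusted p = 1.75e-07). *Adam9*, a related metalloprotease, rose by 1.09 on the log2 scale (limma adjusted p = 4.18e-06). *Adam12* rose by 3.55 and *Pappa* by 2.11 in PKM2-/- hearts.

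Of 24 tested genes from PI3K to AKT and mTOR, 2 rose and 11 fell in PKM2fl/fl hearts, and 3 rose and 9 fell in PKM2-/- hearts. With equal library totals these counts were 1 higher and 6 lower in PKM2fl/fl hearts, and 4 higher and 0 lower in PKM2-/- hearts, so the direction of the list in PKM2-/- hearts depended on the scaling. *Inpp5d*, a lipid phosphatase of blood cells that opposes PI3K, rose by 1.78 on the log2 scale (limma adjusted p = 9.6e-08), and by 1.80 in PKM2-/- hearts. *Pik3r1*, the regulatory PI3K subunit, fell by 1.10 (limma adjusted p = 4.26e-05), *Tsc2*, a brake on mTOR, fell by 0.84 (7.54e-05), and the AKT targets *Foxo3* and *Foxo4* fell by 0.95 (3.22e-05) and 1.30 (1.31e-04). The insulin receptor *Insr* went from 6752 to 3560.3 normalized counts (log2 fold change -0.93, limma adjusted p = 2.70e-05).

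Among 8 tested receptor adaptors, 2 rose and 3 fell in each genotype. *Grb14*, which inhibits the insulin receptor kinase, fell by 1.40 on the log2 scale in PKM2fl/fl hearts (limma adjusted p = 1.19e-04). Of the 7 growth hormone axis genes, 2 rose and 2 fell in each genotype, with *Jak2*, the growth hormone receptor kinase, higher by 0.91 in PKM2fl/fl hearts (limma adjusted p = 9.37e-06). Of the 6 tested genes of the *Igf2* locus and its mRNA binding proteins, 3 rose and 1 fell in each genotype. *Igf2bp2*, an mRNA binding protein, rose by 0.97 in PKM2fl/fl hearts (limma adjusted p = 2.38e-05). *H19*, the maternally expressed neighbour of *Igf2*, was picked out after its values were seen. It went from 551 to 1361 normalized counts in PKM2fl/fl hearts (limma adjusted p = 2.61e-05) and from 513 to 2147 in PKM2-/- hearts (3.98e-07). *Igfals*, which encodes the acid labile partner of IGFBP3 in plasma, was also picked out afterwards. It fell from 63.8 to 32.7 in PKM2fl/fl hearts (limma adjusted p = 0.0382) and from 69.7 to 24.7 in PKM2-/- hearts (0.00613). With equal library totals the PKM2-/- call was lost (limma adjusted p = 0.0621) and the PKM2fl/fl call was kept (0.0224).

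Between genotypes, 0 of these 54 genes were called at baseline or after sham surgery, and 2 were called after MI. *Ddit4*, a stress-induced inhibitor of mTOR, had a mean of 1614 normalized counts in PKM2-/- and 547 in PKM2fl/fl MI hearts (log2 difference 1.58, limma adjusted p = 0.0319). *Irs1*, the adaptor that links IGF1R to PI3K, had 528 and 1039 (log2 difference -0.93, limma adjusted p = 0.0481), a call lost with equal library totals (limma adjusted p = 0.392). The number called after MI moved from 2 to 11 without PKM2fl/fl MI heart 3, and to 0 without any other 1 of the MI hearts. Sham surgery against baseline moved 9 of the 54 in PKM2-/- hearts, 7 up and 2 down, and none in PKM2fl/fl hearts, against 5.14% and 0.19% of all genes. The 3 with the smallest adjusted p were *Inpp5d* (log2 fold change 0.94, limma adjusted p = 0.00238), *Ddit4* (2.13, 0.00280) and *Socs3*, a feedback inhibitor of cytokine and growth hormone signalling (2.27, 0.00563).

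For each member, the gene with the most similar pattern was sought among 13470 genes, by the root mean square difference of the 6 group means on the log2 scale after centring. *Igf1* was nearest to *Tgfb3* (0.0919), *Igfbp3* to *Sdc1* (0.111), *Igfbp7* to *Rnf26* (0.0359) and *Igfbp6* to *Atf5* (0.0597). *Igf2* was nearest to *Gm49394* (0.00244), the gene with which it shares its reads. For the members with little change, the nearest genes were *Cry1* for *Igf1r* (0.0247), *Zzz3* for *Igf2r* (0.0172), *Irak3* for *Igfbp4* (0.0397) and *Cyb5r4* for *Igfbp5* (0.0406). Such likeness over 6 groups is a description only.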

How the data were processed

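RNA from 16 left ventricles was sequenced in pairs of reads. Upstream steps by the authors were trimming (PRINSEQ), alignment to mm10 (HISAT2), gene counting (featureCounts) and DESeq2. Versions and the strand and overlap settings of the counting are not given in the sources used here. The deposited per-library values are a normalized signal, each gene's count over the DESeq2 size factor. The deposited log2 fold changes, Wald scores and p-values of the authors' baseline comparison were not used. Division by each library's step gave whole reads for 100% of values, within 0.02 reads. There were 0 columns without a sample.

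Analysis used log2(normalized count + 1), on which fold changes of low genes are understated. Of 55492 genes, the 20576 whose mean reached 10 were tested. limma 3.58.1 (limma-trend, R 4.3.3) was fitted to all 16 libraries in 6 groups, with Benjamini-Hochberg adjustment over all genes tested and calls at an adjusted p under 0.05. The study's rule added a 2-fold change. edgeR 4.0.16 and DESeq2 1.42.0 on the recovered reads, other pseudocounts, filters and scalings, a replicate block and each library left out were alternatives. The models were tested on simulated data. Exon lengths came from GENCODE release M39, positions and upstream bases from RefSeq on GRCm38.p6.

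All 10 members are named. Of the other genes of the axis, those named are the 6 with the smallest adjusted p in each direction after MI in PKM2fl/fl hearts and the 3 with the smallest adjusted p in other comparisons. The members and lists were chosen with earlier results of these data known.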

Additional observations from a re-analysis of the deposited data

Results flagged for a closer look

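*Igf1* stood out because its genotype difference had opposite directions at 2 stages, with both PKM2-/- hearts above both PKM2fl/fl hearts at baseline and all 3 PKM2-/- hearts below all 3 PKM2fl/fl hearts after MI. The difference after MI minus that at baseline was -0.67 on the log2 scale (standard error 0.22). Tested as a contrast in limma, it had an adjusted p of 0.365, which misses the threshold. Neither of the 2 differences was called, and the one after MI was 0.05 with equal library totals. This contrast was added after the data were seen.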

How the results depend on the processing

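Of 208 alternative counts of called genes, 178 stayed within 1.5 times the reported count. Of 473 alternative fold changes of members, 430 kept their direction and their side of the threshold. With equal library totals, the median of all genes moved to -0.18 (MI in PKM2fl/fl), 0.52 (MI in PKM2-/-), -0.59 (genotype at baseline), -0.33 (after sham surgery), 0.36 (after MI) and 0.68 (interaction), and with TMM scaling these medians lay between -0.028 and 0.031. Under equal totals, genes called in the IGF axis went from 34 to 21 and from 32 to 18 after MI, and the sham call of both *Igfbp4* and *Igfbp7* was lost, leaving 0. Directions turned for *Igfbp4* after MI in PKM2fl/fl hearts (-0.092), *Igfbp7* by genotype after sham surgery (-0.035), *Igf1* by genotype after MI (0.050) and *Igf1* in the interaction (0.17).

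For members called between sham and baseline in PKM2-/- hearts, 2 became 1 with no filter, with edgeR with or without its filter, with the replicate block and with only the groups compared, and 0 to 1 with a heart left out. edgeR with no filter called 1 member, *Igfbp3*, by genotype after MI and 1 in the interaction. Axis genes called by genotype after sham surgery went from 0 to 5 with edgeR with no filter, 2 with DESeq2 and 0 to 1 with a heart left out. After MI, the 2 called became 1 with a pseudocount of 0.1 or no filter, 10 with edgeR with no filter, 8 with DESeq2, 0 with the replicate block, 0 with only the groups compared, and 0 to 11 with a heart left out, the 11 without PKM2fl/fl MI heart 3. The cause was not tested.

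With a heart left out, directions turned for uncalled changes after MI: *Igf1r* in PKM2fl/fl hearts ran from -0.12 to 0.088, *Igfbp4* from -0.030 to 0.19 there and from -0.044 to 0.11 in PKM2-/- hearts, and *Igf2r* in PKM2-/- hearts from -0.0057 to 0.11. Replicate numbers did not pair the hearts: 18 correlations of deviations ran from -0.20 to 0.13, and 1 exceeded 0.1. The block ended 1 member call, that of *Igfbp7* between sham and baseline in PKM2-/- hearts (limma adjusted p = 0.0638). *Igfbp2*, at 27 reads in all, is too shallow for a comparison.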
